A study of Mus musculus with 12 samples.

Results

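Tumours treated with BF10, in which interleukin-10 (IL-10) is joined to an antibody against the receptor CSF1R, were compared with tumours treated with the unfused antibody (αCSF1R). The comparison covered 6 of the 12 RNA-seq libraries of the series, 3 labelled BF10 and 3 labelled αCSF1R, taken by the treatment given for each sample. Per the labels, all mice were C57BL/6 bearing tumours of MTC-Q1, a mouse oral cancer cell line, grown in the mouth, and treatment began at a tumour volume of 100 mm3. BF10 is an antibody against mouse CSF1R with human IL-10 at the end of its heavy chain, so IL-10 is the part in which the treatments differ by design. The libraries of the groups also differed in markers of tumour cell type, MHC haplotype and sex, as described below. The other 6 libraries were from tumours treated with control IgG (Ctrl-IgG) or with IL-10-Fc, in which IL-10 is carried by an Fc region. They shared one model of the spread with the 6 libraries above and gave the matching comparison of IL-10 without the CSF1R antibody. Sex and age of the mice are not in the labels, and nothing says that the 3 libraries of a group came from separate animals, so p-values measure the spread between these libraries.

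CSF1R is the receptor for the growth factors CSF1 and IL-34, on which most tissue macrophages depend, and antibodies that block it reduce macrophages in many tumours. IL-10 is a cytokine that acts through IL10RA and IL10RB, JAK1, TYK2 and STAT3. It restrains inflammatory cytokine production by macrophages and can also act directly on CD8+ T cells. In RNA from a whole tumour, fewer cells of a type and less RNA per cell cannot be told apart.

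Expression was measured as FPKM (fragments per kilobase of transcript, scaled to library size). The FPKM sum was 855961 in BF10 replicate 1 and between 637596 and 695148 in the other 5 libraries, and mitochondrial genes held 6.57% of it in BF10 replicate 1 against 2.99% to 3.61%. In BF10 replicate 1 the 2101 genes with the shortest annotated exons had a median log2 ratio of 0.19 to the other BF10 libraries, whereas the 2101 with the longest had -0.37. Sequencing depth relative to αCSF1R replicate 1, estimated from the steps between low FPKM values, ranged from 0.841 to 1.19 among the 6 libraries. Pearson's r of log2(FPKM + 1) between libraries, across genes, was 0.911 to 0.976 within BF10, 0.961 to 0.986 within αCSF1R and 0.795 to 0.876 between the groups.

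Markers of tumour cell type, MHC haplotype and sex divided the groups, against labels that give one tumour line and one mouse strain. H2-Ea (chr17:34341959-34344645 in GRCm38, annotated as a polymorphic pseudogene) encodes an MHC class II chain that C57BL/6 mice are known not to express. In BF10 replicates 1 to 3 it stood at 1089, 564 and 553 FPKM, while no αCSF1R library exceeded 0.17 FPKM. Xist, the RNA of the inactive X chromosome, was at 29.5, 30.7 and 23.7 FPKM in BF10 and at most 0.04 FPKM in αCSF1R, while the Y-linked gene Eif2s3y was at 0.05, 0 and 3.29 FPKM against 5.18, 7.09 and 4.23 FPKM. Keratins of simple epithelium were present in the BF10 libraries and not in αCSF1R, with Krt8 at 348, 618 and 479 FPKM against 0.17 FPKM or less. The squamous keratin Krt5 was at 0.9, 1.94 and 2.38 FPKM in BF10 and at 56.4, 101 and 0 FPKM in αCSF1R, so αCSF1R replicate 3 lacked the squamous keratins as well. Acta1 of skeletal muscle was at 215, 238 and 28.6 FPKM in αCSF1R and at 0.03, 0.11 and 30.5 FPKM in BF10. The IL-10-Fc libraries stood with BF10 and the Ctrl-IgG libraries with αCSF1R for H2-Ea, Krt8, Xist and Eif2s3y. The study also used a breast tumour model in another mouse strain, which was not analysed here. Treatment, tumour type, host strain and sex therefore cannot be told apart in any difference between the BF10 and αCSF1R libraries below.

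**Figure D1:**
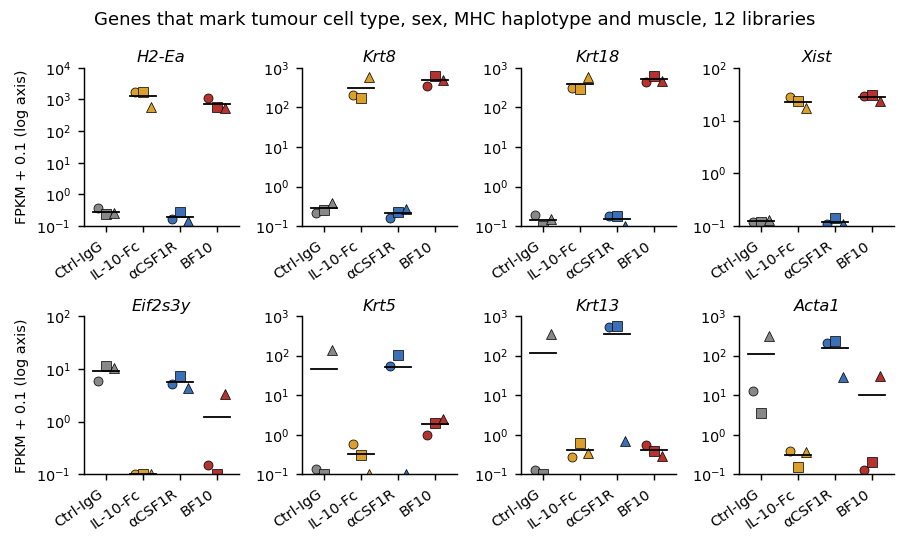
FPKM plus 0.1 on a log axis for 8 genes in the 12 libraries; each point is a library (circle, square and triangle for replicates 1, 2 and 3) and each bar a group mean. H2-Ea, Krt8, Krt18 and Xist are high in BF10 and IL-10-Fc and at or near 0 in αCSF1R and Ctrl-IgG, and BF10 replicate 3 is the BF10 library with Eif2s3y and Acta1.

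BF10 replicate 3 lay between the groups for genes of the αCSF1R tumours. Among 40 genes that were at 20 FPKM or more in every αCSF1R library and at or below 5% of the αCSF1R mean in BF10 replicates 1 and 2, BF10 replicate 3 had a median of 18.2% of the αCSF1R mean, with quartiles of 15.3% and 21.3%. Of these, 39 were above 5% in that library. Where it lay nearer to the αCSF1R libraries than the rest of its group, the difference without it is given below for some genes, not for all. Those not given below include Il1rn (-1.7 without it), Gzmb (-3.04), Gzmg (-4.14), Ccl2 (-3.67), Ccl5 (-2.32) and Acta1 (-6.75).

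Across 15813 genes tested with limma, 1743 were higher and 2212 lower in BF10 than in αCSF1R by the calling rule of a Benjamini-Hochberg adjusted p below 0.05 together with a 1.5-fold difference or more, which is 11.0% and 14.0% of the genes. The excess of falls depended on the scaling, with 2071 higher and 2061 lower under median-of-ratios scaling and 2295 and 2389 under quantile normalization. The 2 groups did not overlap for 8805 genes (55.7%). The median log2 difference over all genes tested was -0.21, on the log2(FPKM + 1) scale used for every difference below. Against this background, 20 lists of immune genes held 272 genes, of which 238 were tested, 69 (29.0%) rose and 28 (11.8%) fell, with a median of 0.66. Genes of macrophages, monocytes, neutrophils, MHC class II and immunoglobulins made up most of the rises, and granzymes, natural killer (NK) cell receptors, interferon-induced genes and a set of chemokines most of the falls.

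Adding the number that follows C in each title, whose meaning is not given, to the fit reduced the comparison to BF10 replicate 2 and αCSF1R replicate 3, the only libraries of the 2 groups to share a number. That term ended the calls of Ptprc, Coro1a, Cd52, Adgre1, Lyz2, Mrc1, Ccr2, Ccl12, Ccl6, Ccl9, Clec4n, Clec4a2, Slamf9, Ccl5, Jchain, Igkc, Il1rn and Il1a (limma adjusted p from 0.0514 to 0.441). It also ended those of Aif1, Folr2, Vsig4, Ms4a6c, Dpep2, Prf1, Ikzf2, Oasl2, Col3a1, Lum and Adipoq (0.0851 to 0.347). With it fewer macrophage identity, neutrophil and myeloid lectin genes rose, among others, whereas more T cell, B cell, dendritic cell and MHC class II genes did.

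**Figure D2:**
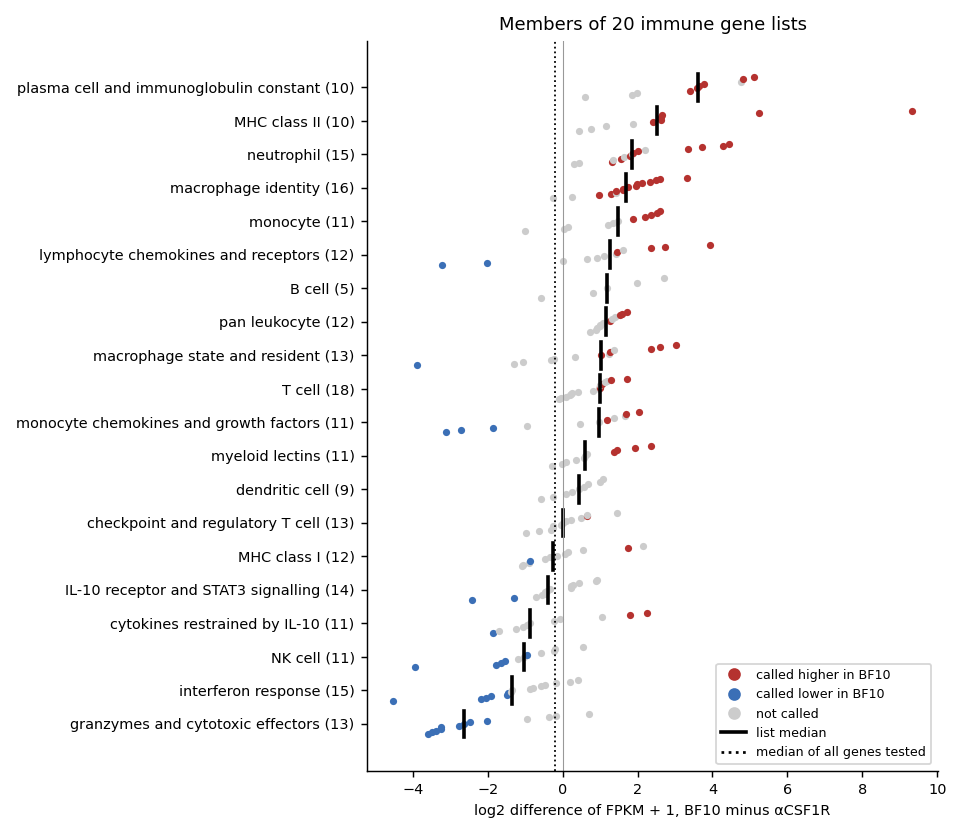
Log2 differences of FPKM + 1, BF10 minus αCSF1R, for the tested members of 20 immune gene lists (number tested in brackets); each point is a gene, red where called higher, blue where called lower and grey where not called, with the list median as a black bar and the median of all genes tested as a dotted line at -0.21. The list medians run from -2.63 for granzymes and cytotoxic effectors to 3.61 for plasma cell and immunoglobulin genes.

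General leukocyte genes were higher in the BF10 libraries. Ptprc, which encodes the pan-leukocyte phosphatase CD45, was at 35.4, 47.3 and 38.9 FPKM in BF10 and at 14.3, 15.8 and 18.7 FPKM in αCSF1R, a log2 difference of 1.26 (SE 0.38, limma adjusted p = 0.0307). Of 12 pan-leukocyte genes, 4 rose and none fell, with a median difference of 1.17. The others that rose were Arhgdib, a GTPase regulator of blood cells (1.71, SE 0.33, adjusted p = 0.00374), Coro1a, an actin regulator (1.58, SE 0.35, adjusted p = 0.00734), and Cd52, a surface glycoprotein of lymphocytes and myeloid cells (1.53, SE 0.43, adjusted p = 0.0239). Laptm5, Rac2, Vav1 and Was, also used by most leukocytes, were higher than in αCSF1R only in BF10 replicates 2 and 3 and did not pass. Some of these calls were lost in fits with 1 library left out, which also have fewer libraries to test. Ptprc did not pass whichever of the 6 libraries was left out (1.15 to 1.36, adjusted p from 0.0503 to 0.103). Cd52 did not pass when any BF10 library or αCSF1R replicate 1 or 2 was left out (adjusted p from 0.0556 to 0.0907). The 4 rises became 2 without BF10 replicate 2 or 3 or αCSF1R replicate 1 or 2, and 7 without BF10 replicate 1.

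The receptor that both molecules bind was among the genes that rose. Csf1r (chr18:61100598-61132149) was at 13.1, 79.1 and 67.0 FPKM in BF10 and at 6.91, 8.14 and 7.42 FPKM in αCSF1R. Every BF10 library was above every αCSF1R library, but BF10 replicate 1 lay nearer to the αCSF1R group than to the other BF10 libraries. The log2 difference was 2.33 (SE 0.69, adjusted p = 0.0311), and the call was lost without BF10 replicate 2 (1.87, adjusted p = 0.118), without BF10 replicate 3 (1.99, adjusted p = 0.0998) or without αCSF1R replicate 1, 2 or 3 (2.28 to 2.38, adjusted p from 0.0755 to 0.0901). The receptor's mean was 53.0 ± 35.1 FPKM (SD, n = 3) in BF10, 7.49 ± 0.618 in αCSF1R, 24.8 ± 20.6 in IL-10-Fc and 12.7 ± 8.2 in Ctrl-IgG. Its ligands did not pass: Csf1 differed by 0.47 (SE 0.71, adjusted p = 0.661), and Il34 was at 15.7, 21.7 and 21.3 FPKM against 8.18, 11.4 and 8.79 FPKM (0.98, SE 0.37, adjusted p = 0.0787).

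Genes that define macrophages rose as a group, 13 of 16 with none falling and a median of 1.68. Their summed level was 3690 to 3780 FPKM in BF10 and 725 to 813 FPKM in αCSF1R. The 13 rises became 7 without αCSF1R replicate 1 and 8 without αCSF1R replicate 2, where Fcgr1, Ctss and Apoe were among those lost. The complement subunit gene C1qa, made largely by macrophages, was at 330, 349 and 371 FPKM against 65.0, 65.2 and 55.4 FPKM, a difference of 2.49 (SE 0.25, adjusted p = 8.66e-05). The partner subunits C1qb (1.74, SE 0.25, adjusted p = 0.000748) and C1qc (2.59, SE 0.40, adjusted p = 0.000956) rose beside it. Lyz2, the lysozyme of macrophages and granulocytes, was at 1478, 1034 and 877 FPKM against 106, 114 and 111 FPKM (3.31, SE 0.56, adjusted p = 0.00171). For these 4 genes the BF10 libraries, replicate 1 included, lay close together and several times above the αCSF1R libraries.

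Adgre1, which encodes the mouse macrophage antigen F4/80, was at 18.4, 14.1 and 15.9 FPKM against 5.57, 6.06 and 6.46 FPKM, a smaller difference of 1.28 (SE 0.35, adjusted p = 0.0222). That call was lost without BF10 replicate 1 or 3 or any αCSF1R library (adjusted p from 0.0532 to 0.0766). Trem2, a lipid receptor of tumour macrophages, rose by 1.97 (SE 0.33, adjusted p = 0.0015) and Aif1, an actin-binding protein of macrophages, by 1.99 (SE 0.38, adjusted p = 0.00344). Among the 3 members that did not pass were Mertk, a receptor for dying cells, and Cd68, a lysosomal protein. Cd68 was at 32.4, 75.00 and 84.5 FPKM in BF10 and at 41.7, 53.1 and 53.7 FPKM in αCSF1R (0.26, SE 0.43, adjusted p = 0.697). The pan-macrophage markers therefore did not move alike, with C1q and Lyz2 separated widely and Cd68 overlapping.

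Scavenger receptors and arginase rose, and Gpnmb fell, among 15 genes of macrophage states and resident macrophages, of which 13 were tested. Mrc1, the mannose receptor CD206, was at 31.8, 29.0 and 27.4 FPKM against 4.49, 3.82 and 6.6 FPKM (2.37, SE 0.36, adjusted p = 0.000916). Msr1, the scavenger receptor CD204, was at 112, 75.9 and 64.3 FPKM against 7.52, 7.37 and 13.8 FPKM (3.02, SE 0.43, adjusted p = 0.000622). Arg1, the arginine-degrading enzyme of suppressive myeloid cells, was at 154, 313 and 159 FPKM against 18.7, 34.9 and 48.1 FPKM (2.60, SE 0.42, adjusted p = 0.00136). All 3 BF10 libraries stood above all αCSF1R libraries for each of these genes. Folr2, a folate receptor of resident macrophages, rose by 1.26 (SE 0.28, adjusted p = 0.00755) and Vsig4, a complement receptor at a low level, by 1.03 (SE 0.30, adjusted p = 0.0301), so the list had 5 rises and 1 fall. Vsig4 did not pass without BF10 replicate 1 (0.82, adjusted p = 0.101) or without any αCSF1R library (adjusted p from 0.0756 to 0.0843).

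Gpnmb (chr6:49036546-49070929), a glycoprotein of lipid-laden macrophages that pigment and some tumour cells also make, was at 2.68, 2.24 and 32.0 FPKM in BF10 and at 96.7, 143 and 92.5 FPKM in αCSF1R. The difference was -3.90 (SE 0.74, adjusted p = 0.00321), with BF10 replicate 3 between the groups, and it stayed past the threshold without any 1 of the 6 libraries (-4.99 to -3.31). Nos2, the nitric oxide synthase of inflammatory macrophages, was at 6.28, 12.7 and 16.6 FPKM against 24.8, 31.3 and 17.7 FPKM and did not pass (-1.05, SE 0.83, adjusted p = 0.384). Spp1, which encodes osteopontin, overlapped between groups at 6693, 2031 and 2183 FPKM against 2419, 2362 and 2586 FPKM (0.34, SE 0.64, adjusted p = 0.737).

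**Figure D3:**
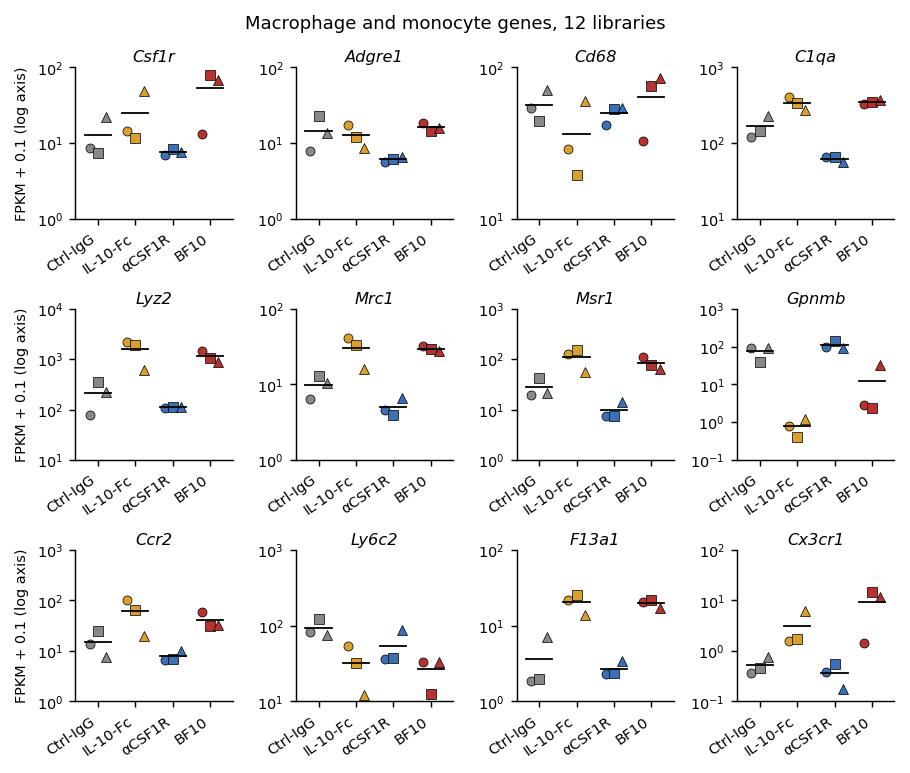
FPKM plus 0.1 on a log axis for 12 macrophage and monocyte genes in the 12 libraries; each point is a library (circle, square and triangle for replicates 1, 2 and 3) and each bar a group mean. C1qa, Lyz2, Mrc1, Msr1 and F13a1 are higher in every BF10 library than in every αCSF1R library, Cd68 overlaps, and Gpnmb runs the other way with BF10 replicate 3 in between.

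Monocyte genes were divided between the receptor Ccr2 and the surface antigen Ly6c2, both markers of inflammatory monocytes. Ccr2, the receptor for CCL2, was at 59.1, 30.8 and 31.9 FPKM in BF10 and at 6.64, 6.82 and 9.92 FPKM in αCSF1R (2.20, SE 0.56, adjusted p = 0.0146). Ly6c2 was lower in every BF10 library, at 33.3, 12.5 and 33.2 FPKM against 36.2, 37.1 and 88.4 FPKM, but did not pass (-1.0, SE 0.56, adjusted p = 0.217). Of 11 tested monocyte genes 5 rose and none fell, with a median of 1.48. F13a1, a coagulation factor subunit of monocytes and resident macrophages, rose by 2.53 (SE 0.39, adjusted p = 0.00106), Ms4a6c, a membrane protein of monocytes, by 1.89 (SE 0.35, adjusted p = 0.00287), and Ace, the angiotensin-converting enzyme, by 2.36 (SE 0.52, adjusted p = 0.00744). Cx3cr1, the fractalkine receptor of patrolling monocytes and macrophages, was at 1.32, 14.8 and 11.6 FPKM against 0.29, 0.44 and 0.08 FPKM (2.61, SE 0.64, adjusted p = 0.0119), with BF10 replicate 1 again the lowest of its group. Ccr2 was not called without BF10 replicate 1 or αCSF1R replicate 1 or 2 (adjusted p from 0.0519 to 0.0553), nor Cx3cr1 without BF10 replicate 2 (2.10, adjusted p = 0.0526).

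The chemokines that recruit monocytes moved in opposite directions. Ccl2, the main CCR2 ligand, fell from 630, 638 and 696 FPKM in αCSF1R to 100, 25.02 and 160 FPKM in BF10 (-3.12, SE 0.58, adjusted p = 0.00288), and its neighbour Ccl7 fell by 2.71 (SE 0.59, adjusted p = 0.00689). Ccl4, a chemokine of macrophages and killer cells, was at 12.6, 6.16 and 11.5 FPKM against 36.6, 40.02 and 37.3 FPKM (-1.87, SE 0.35, adjusted p = 0.00307). For these 3 genes the groups did not overlap. Ccl12, another CCR2 ligand, which lies beside Ccl2 and Ccl7 on chromosome 11, rose instead, at 107, 58.9 and 59.4 FPKM against 11.8, 12.3 and 31.3 FPKM (2.05, SE 0.50, adjusted p = 0.0125). The myeloid chemokines Ccl6 (1.69, SE 0.56, adjusted p = 0.0458) and Ccl9 (1.19, SE 0.34, adjusted p = 0.0245) rose as well, so 3 of 11 genes rose and 3 fell. The calls of Ccl12, Ccl6 and Ccl9 were each lost in some fits with 1 library left out, which also have fewer libraries to test. Their differences there stayed at 1.77 to 2.49, 1.29 to 1.98 and 0.95 to 1.56. Ccl12 did not pass without αCSF1R replicate 1 or 2 (adjusted p of 0.058 and 0.0543), Ccl6 without BF10 replicate 1 or 2 or any αCSF1R library (0.0664 to 0.153), and Ccl9 without BF10 replicate 2 or 3 or αCSF1R replicate 1 or 2 (0.0787 to 0.108). Without αCSF1R replicate 1 or 2 none of the list rose.

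Lectin receptors of myeloid cells gave 4 rises and no fall among 11 tested, with a median of 0.59. Clec4n, which encodes the fungal sensor dectin-2, was at 87.9, 48.2 and 48.5 FPKM against 8.95, 11.9 and 11.2 FPKM (2.37, SE 0.48, adjusted p = 0.00459). Clec4a2, an inhibitory lectin, rose by 1.94 (SE 0.53, adjusted p = 0.0212), Slamf9, a receptor of the SLAM family, by 1.46 (SE 0.46, adjusted p = 0.0374) and the dipeptidase Dpep2 by 1.36 (SE 0.26, adjusted p = 0.00372). Several members of this list, Slamf9 and Dpep2 among them, were named by the study from these samples and are no independent evidence of its direction. Slamf9 did not pass without any single library (adjusted p from 0.0534 to 0.106), nor Clec4a2 without BF10 replicate 1 or αCSF1R replicate 1 or 2 (0.0703 to 0.0736). The 4 rises became 2 when BF10 replicate 1 or αCSF1R replicate 1 or 2 was left out.

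Neutrophil genes rose in 9 of 15 tested with a median of 1.85, although the defining markers S100a8 and S100a9 did not pass. Mmp9, a collagenase stored in neutrophil granules, was at 48.4, 297 and 175 FPKM against 5.08, 5.14 and 8.21 FPKM (4.29, SE 0.64, adjusted p = 0.000818). Ngp, a granule protein of developing neutrophils, was at 6.86, 33.7 and 39.0 FPKM against 0.03 FPKM in each αCSF1R library (4.43, SE 0.71, adjusted p = 0.00123). Stfa2, a cysteine protease inhibitor with close paralogs among which reads may be divided, was at 30.4, 7.22 and 12.5 FPKM against 0.19, 0.19 and 0.1 FPKM (3.71, SE 0.52, adjusted p = 0.000587). The calprotectin subunit S100a8 was at 681, 195 and 293 FPKM against 93.0, 165 and 82.3 FPKM (1.64, SE 0.82, adjusted p = 0.172), so granule genes separated the groups more than calprotectin did. Mmp9, Stfa2 and Elane were also named by the study from these samples. The 9 rises became 4 without BF10 replicate 3 or αCSF1R replicate 1 or 2 and 5 without αCSF1R replicate 3, with Mpo, Elane, Camp and Stfa2l1 lost each time. Ly6g, a defining neutrophil surface antigen, stayed below 1 FPKM in all 6 libraries and was not tested.

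None of 9 tested dendritic cell genes passed in either direction, where 25.0% of all genes did, and their median was 0.45. Itgax, the integrin CD11c of dendritic cells and some macrophages, was at 1.95, 9.81 and 9.84 FPKM in BF10 and at 2.5, 2.63 and 1.91 FPKM in αCSF1R (1.07, SE 0.61, adjusted p = 0.223). Flt3, Xcr1, Clec9a and Cd209a, which define dendritic cell subsets, fell under the filter with at most 1.35 FPKM in any of the 6 libraries.

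Genes of MHC class II antigen presentation rose in 6 of 10 tested and none fell, with a median of 2.51. Apart from H2-Ea, H2-Aa (chr17:34282744-34287823) was at 1280, 788 and 815 FPKM against 184, 180 and 104 FPKM (2.62, SE 0.40, adjusted p = 0.00091), and its partner chain gene H2-Ab1 at 175, 501 and 488 FPKM against 64.2, 74.7 and 33.7 FPKM (2.66, SE 0.55, adjusted p = 0.0051). Ciita, the coactivator that switches class II genes on, was at 8.56, 19.0 and 14.6 FPKM against 1.95, 2.55 and 0.89 FPKM (2.41, SE 0.40, adjusted p = 0.00151). The BF10 libraries were above the αCSF1R libraries for each of these. H2-Eb1 rose by 2.62 (SE 0.40, adjusted p = 0.001). H2-DMb2, a chain of the peptide-loading molecule that the study named from these samples, was at 40.6, 103 and 89.0 FPKM against 0.68, 1.34 and 0.79 FPKM (5.25, SE 0.43, adjusted p = 2.43e-05), while the near-identical H2-DMb1 overlapped at 41.5, 98.95 and 101 FPKM against 49.4, 55.2 and 30.5 FPKM (0.76, SE 0.48, adjusted p = 0.275). Reads of these 2 copies may be divided between them, and class II sequences also differ between mouse strains. The invariant chain Cd74 did not pass (1.89, SE 0.65, adjusted p = 0.0562).

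Promoter windows are shown for the class II genes, of which 6 of 10 tested rose. The family is known to share a Y box, the site of the factor NF-Y. Windows ran from 250 bases before to 50 bases after the start in the RefSeq annotation of GRCm38.p6, which is the C57BL/6J sequence. Of the 12 genes, 8 matched by symbol, with 9 windows. The Y box core GATTGG (or CCAATC, its reverse complement, both strands searched) was in 8 of 9 windows (88.9%), against 16.1% of all 32851 promoter windows and 14.7% of the windows of genes called higher. Those of 3 genes that rose follow, 5′ to 3′ on the gene's strand with the core in capitals; H2-Aa lies on the minus strand at chr17:34287774-34288073, H2-Eb1 on the plus strand at chr17:34305617-34305916 and H2-DMb2 on the plus strand at chr17:34144999-34145298.
H2-Aa: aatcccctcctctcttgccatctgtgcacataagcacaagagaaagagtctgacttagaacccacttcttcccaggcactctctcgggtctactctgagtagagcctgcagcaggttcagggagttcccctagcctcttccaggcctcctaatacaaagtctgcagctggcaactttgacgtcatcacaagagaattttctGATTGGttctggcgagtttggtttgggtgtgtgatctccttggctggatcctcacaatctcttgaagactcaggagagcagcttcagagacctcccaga
H2-Eb1: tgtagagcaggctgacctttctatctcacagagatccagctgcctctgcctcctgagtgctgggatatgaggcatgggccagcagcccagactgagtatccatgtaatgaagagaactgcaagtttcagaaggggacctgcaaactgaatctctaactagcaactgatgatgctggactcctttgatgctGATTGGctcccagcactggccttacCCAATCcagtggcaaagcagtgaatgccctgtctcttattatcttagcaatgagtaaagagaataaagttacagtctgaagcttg
H2-DMb2: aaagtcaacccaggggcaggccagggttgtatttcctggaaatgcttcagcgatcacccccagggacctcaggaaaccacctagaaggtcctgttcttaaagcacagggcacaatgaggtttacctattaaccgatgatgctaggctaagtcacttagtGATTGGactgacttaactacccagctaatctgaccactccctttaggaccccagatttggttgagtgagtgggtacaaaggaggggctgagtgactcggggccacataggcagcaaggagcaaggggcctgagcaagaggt
The core began 49 bases before the start in H2-Aa, 60 and 35 before it in H2-Eb1, and 91 before it in H2-DMb2. The windows of H2-DMa, H2-DMb1 and H2-Oa, which did not pass, and those of H2-Ob and H2-Eb2, which were not tested, held the core too. Among the windows of all genes tested, 20.1% held it.

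MHC class I genes were divided, with 1 rise and 1 fall among 12 and a median of -0.25. Of all genes tested 11.0% rose and 14.0% fell, which is close to these counts. H2-K1, a classical class I heavy chain gene, was at 2359, 3252 and 3576 FPKM against 3293, 3543 and 3164 FPKM (-0.14, SE 0.39, adjusted p = 0.817). The immunoproteasome subunit Psmb10 fell from 612, 660 and 561 FPKM to 386, 254 and 368 FPKM (-0.88, SE 0.20, adjusted p = 0.00925), a call that was lost under median-of-ratios scaling (-0.68, adjusted p = 0.17). The class Ib gene H2-Q7, whose reads overlap with those of near-identical Q genes, rose by 1.74 (SE 0.56, adjusted p = 0.0412) and did not pass without BF10 replicate 2 or 3 or any αCSF1R library (adjusted p from 0.0837 to 0.13).

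Interferon-induced genes fell in 6 of 15 with no rise and a median of -1.35. Rsad2, which encodes the antiviral enzyme viperin, was at 4.58, 3.04 and 52.5 FPKM in BF10 and at 275, 269 and 196 FPKM in αCSF1R (-4.52, SE 0.76, adjusted p = 0.00165). Isg15, a ubiquitin-like modifier, was at 63.8, 51.5 and 120 FPKM against 363, 308 and 345 FPKM (-2.19, SE 0.39, adjusted p = 0.00212). Usp18, the protease that removes ISG15, was at 23.5, 12.2 and 22.5 FPKM against 83.5, 74.3 and 81.4 FPKM (-2.04, SE 0.28, adjusted p = 0.000514). None of these overlapped between groups, and for Rsad2 and Isg15 BF10 replicate 3 was the highest of its group. Without BF10 replicate 3 the difference of Rsad2 was -5.69 and that of Isg15 -2.54. Mx1, Oasl2 and Ifit3, antiviral effectors, also fell. Of these Oasl2 was not called without BF10 replicate 1 or 2 or any αCSF1R library (adjusted p from 0.075 to 0.144), nor Ifit3 without BF10 replicate 2 or 3 or any αCSF1R library (0.071 to 0.153). Not every member passed: Gbp2, a guanylate-binding protein that interferon-γ induces, overlapped between groups at 298, 136 and 189 FPKM against 218, 239 and 209 FPKM (-0.17, SE 0.36, adjusted p = 0.763).

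Promoters of interferon-induced genes are known for repeats of GAAA bound by IRF and STAT factors. The pattern searched, GAAA followed by any 2 bases and GAAA again (or its reverse complement, TTTC on either side of 2 bases), was in 7 of 12 windows (58.3%) of the 10 listed genes with a window, against 3.44% of all windows and 4.08% of those of genes called lower. Isg15, Rsad2 and the chemokine gene Cxcl10, which fell as well, are shown with the matches in capitals; all lie on the minus strand, Isg15 at chr4:156200769-156201068, Rsad2 at chr12:26456403-26456702 and Cxcl10 at chr5:92348840-92349139.
Isg15: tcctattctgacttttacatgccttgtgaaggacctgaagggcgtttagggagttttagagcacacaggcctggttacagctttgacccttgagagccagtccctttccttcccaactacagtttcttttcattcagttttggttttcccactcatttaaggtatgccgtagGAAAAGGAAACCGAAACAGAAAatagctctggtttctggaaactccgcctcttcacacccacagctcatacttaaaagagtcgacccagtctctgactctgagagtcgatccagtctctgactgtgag
Rsad2: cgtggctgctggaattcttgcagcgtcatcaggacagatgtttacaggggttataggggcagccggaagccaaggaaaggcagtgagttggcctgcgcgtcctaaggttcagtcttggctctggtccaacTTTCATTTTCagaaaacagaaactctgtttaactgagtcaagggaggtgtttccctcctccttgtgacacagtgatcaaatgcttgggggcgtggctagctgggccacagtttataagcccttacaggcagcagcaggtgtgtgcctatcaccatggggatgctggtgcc
Cxcl10: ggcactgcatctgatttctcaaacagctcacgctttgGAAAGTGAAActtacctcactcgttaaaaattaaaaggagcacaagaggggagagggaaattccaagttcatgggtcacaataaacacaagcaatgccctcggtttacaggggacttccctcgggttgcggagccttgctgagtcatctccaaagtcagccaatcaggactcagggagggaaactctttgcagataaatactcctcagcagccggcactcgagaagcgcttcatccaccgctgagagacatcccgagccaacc
Isg15 held 3 overlapping matches, and Rsad2 and Cxcl10 held 1 each. Gbp2, Gbp3, Ifit1 and Irgm1, which did not pass, held the pattern too.

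Most genes of the IL-10 receptor and its signalling did not pass, which with 3 libraries in each group does not show that they were unchanged. Over all genes tested 11.0% rose and 14.0% fell, and the counts of this list are near those shares. Mouse Il10 itself was at 1.62, 0.74 and 1.37 FPKM in BF10 and at 0.83, 0.67 and 1.25 FPKM in αCSF1R (0.22, SE 0.23, adjusted p = 0.517); the human IL-10 of BF10 was given as protein. The receptor chain Il10ra was at 4.75, 11.5 and 11.9 FPKM against 3.44, 4.41 and 4.71 FPKM (0.92, SE 0.39, adjusted p = 0.109), and Il10rb at 13.8, 27.7 and 27.9 FPKM against 27.8, 29.1 and 27.6 FPKM (-0.34, SE 0.46, adjusted p = 0.626). Socs3, a feedback inhibitor that STAT3 induces, was at 34.0, 47.9 and 50.1 FPKM against 32.1, 35.6 and 39.5 FPKM (0.28, SE 0.64, adjusted p = 0.781). None of these 4 separated the groups past the test. Of 14 genes none rose and 2 fell, with a median of -0.38: Hmox1, the haem-degrading enzyme that IL-10 is known to induce in macrophages, at 29.7, 38.11 and 106 FPKM against 264, 226 and 320 FPKM (-2.41, SE 0.54, adjusted p = 0.0079; -2.95 without BF10 replicate 3), and Il1rn, the IL-1 receptor antagonist, at 7.42, 9.58 and 20.03 FPKM against 28.5, 34.0 and 26.8 FPKM (-1.31, SE 0.38, adjusted p = 0.0271). Il1rn did not pass without BF10 replicate 1 or 2 or any αCSF1R library (adjusted p from 0.0574 to 0.0927).

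Inflammatory cytokines that IL-10 is known to restrain were mixed, with 2 rises and 1 fall among 11 tested and a median of -0.86. These counts are near the shares over all genes, 11.0% higher and 14.0% lower. Il23a, a subunit of IL-23, was at 17.7, 8.24 and 8.19 FPKM in BF10 and at 1.2, 1.69 and 1.49 FPKM in αCSF1R (2.25, SE 0.32, adjusted p = 0.000618). Il1a, an IL-1 cytokine, was at 15.0, 6.91 and 4.3 FPKM against 1.16, 1.88 and 1.55 FPKM (1.8, SE 0.43, adjusted p = 0.0106). Tnf, at 0.86, 1.88 and 1.69 FPKM against 2.62, 4.26 and 3.5 FPKM, was lower without overlap but did not pass (-0.86, SE 0.33, adjusted p = 0.08). The fall in this list was Ccl4, which also stands among the monocyte chemokines.

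T cell genes rose in 6 of 18 tested, none fell, and the median was 0.99. Trac, the constant part of the T cell receptor α chain, was at 10.5, 24.7 and 18.9 FPKM in BF10 and at 5.19, 4.7 and 3.57 FPKM in αCSF1R (1.73, SE 0.35, adjusted p = 0.00429). Cd3g, a signalling chain of that receptor, was at 9.48, 12.6 and 10.98 FPKM against 3.92, 4.73 and 3.1 FPKM (1.29, SE 0.27, adjusted p = 0.00579). The CD8 coreceptor gene Cd8a was at 3.53, 8.17 and 6.01 FPKM against 2.95, 3.45 and 1.08 FPKM (1.00, SE 0.32, adjusted p = 0.0431). The groups did not overlap for these genes, but BF10 replicate 1 was the lowest of its group in each. Cd3e, another CD3 chain, was at 1.58, 11.3 and 8.17 FPKM against 2.43, 2.68 and 1.14 FPKM and did not pass (1.14, SE 0.52, adjusted p = 0.134), and Cd4 was at 0.12, 5.05 and 4.26 FPKM against 0.54, 0.57 and 0.51 FPKM and fell under the filter. Trbc2, a β chain constant gene, rose by 1.06 (SE 0.30, adjusted p = 0.0243). Trbc2 was lost without BF10 replicate 2 or 3 or any αCSF1R library (adjusted p from 0.0558 to 0.102) and Cd8a without BF10 replicate 2 or 3 or αCSF1R replicate 1 or 3 (0.072 to 0.164). The 6 rises became 2 without BF10 replicate 2 or αCSF1R replicate 1, 3 without BF10 replicate 3 or αCSF1R replicate 3, and 11 without BF10 replicate 1.

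Effector genes of cytotoxic cells fell while T cell receptor genes rose. Of 13 granzymes and cytotoxic effectors 9 fell and none rose, with a median of -2.63, and the summed level was 132 to 371 FPKM in BF10 against 1600 to 1980 FPKM in αCSF1R. Gzmb (chr14:56258838-56262260), the main granzyme of killer cells, was at 25.2, 9.44 and 37.3 FPKM against 127, 126 and 152 FPKM (-2.63, SE 0.50, adjusted p = 0.00306). Perforin, which opens the target cell membrane, is encoded by Prf1, at 1.25, 4.31 and 10.1 FPKM against 43.5, 49.8 and 51.2 FPKM (-3.26, SE 0.64, adjusted p = 0.00373; -3.83 without BF10 replicate 3). Gzmd (-3.39, SE 0.47, adjusted p = 0.000522), Gzmf (-3.49, SE 0.50, adjusted p = 0.000701) and Gzmg (-3.60, SE 0.64, adjusted p = 0.00227) lie with Gzmb in 1 cluster on chromosome 14 and share long stretches of sequence, so reads may be divided among them. Gzmk, a granzyme of memory T cells, was at 2.4, 0.65 and 0.76 FPKM against 0.44, 0.22 and 0.28 FPKM (0.71, SE 0.31, adjusted p = 0.117), the other direction. Ifng, the gene for interferon-γ, overlapped at 1.58, 1.2 and 2.07 FPKM against 2.24, 1.51 and 2.02 FPKM (-0.17, SE 0.26, adjusted p = 0.679).

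NK cell genes fell in 5 of 11 tested, none rose, and the median was -1.03. Eomes, a transcription factor of NK cells and killer T cells, was at 0.63, 0.98 and 1.7 FPKM against 5.62, 5.57 and 5.19 FPKM (-1.65, SE 0.22, adjusted p = 0.000407). Klra4, an NK receptor of the Ly49 family, was at 2.02, 0.03 and 10.7 FPKM against 52.5, 41.7 and 55.3 FPKM (-3.93, SE 0.68, adjusted p = 0.00195; -4.84 without BF10 replicate 3), and Klra7 fell by 1.78 (SE 0.42, adjusted p = 0.0101). The Ly49 receptors are a family of near-identical genes whose number differs between mouse strains. Ncr1, which marks NK cells in all mice, was at 2.71, 1.71 and 2.09 FPKM against 2.93, 2.51 and 2.57 FPKM (-0.22, SE 0.53, adjusted p = 0.79), so NK genes did not fall together.

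**Figure D4:**
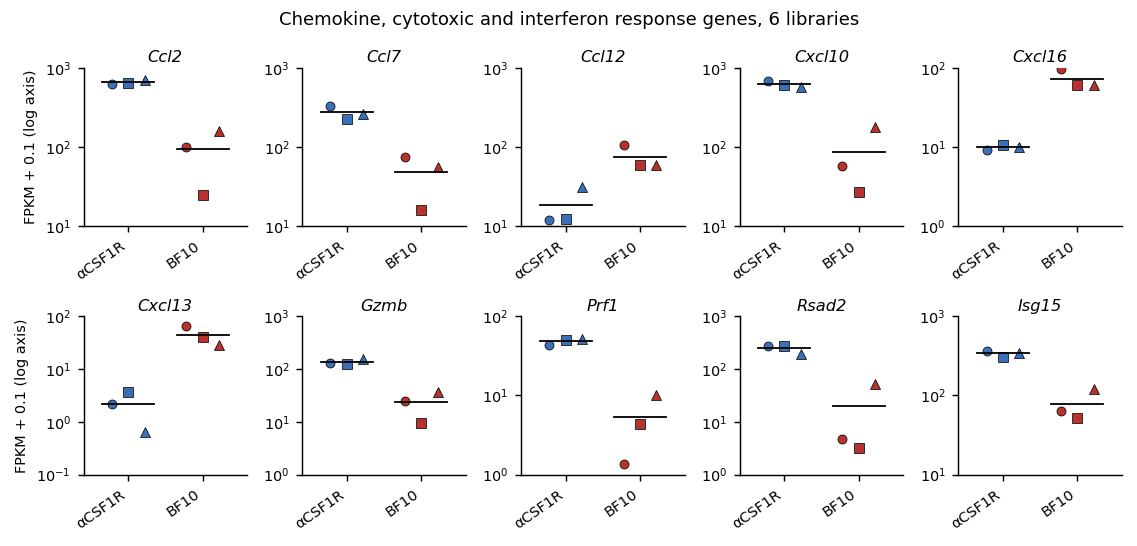
FPKM plus 0.1 on a log axis for 10 chemokine, cytotoxic and interferon-induced genes in the 6 libraries; each point is a library (circle, square and triangle for replicates 1, 2 and 3) and each bar a group mean. Ccl2, Ccl7, Cxcl10, Gzmb, Prf1, Rsad2 and Isg15 are lower in every BF10 library and Ccl12, Cxcl16 and Cxcl13 higher, without overlap.

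Chemokines that attract lymphocytes, with their receptors, gave 4 rises and 2 falls among 12 tested and a median of 1.26. Cxcl16, the ligand of CXCR6, was at 95.5, 60.3 and 60.4 FPKM against 8.97, 10.6 and 10 FPKM (2.72, SE 0.33, adjusted p = 0.000263). Cxcl13, which attracts B cells, was at 64.4, 40.1 and 27.8 FPKM against 2.07, 3.6 and 0.54 FPKM (3.93, SE 0.79, adjusted p = 0.0043). Cxcr3, the receptor of effector T cells for CXCL9, CXCL10 and CXCL11, was at 5.06, 7.63 and 6.51 FPKM against 0.45, 0.65 and 0.21 FPKM (2.36, SE 0.25, adjusted p = 0.000122). The receptor rose while one of its ligands fell. Cxcl10 was at 56.9, 26.9 and 178 FPKM against 690, 604 and 566 FPKM (-3.23, SE 0.52, adjusted p = 0.00125; -3.95 without BF10 replicate 3), whereas Cxcl9 overlapped at 112, 51.4 and 70.2 FPKM against 72.7, 83.9 and 64.1 FPKM (0.02, SE 0.47, adjusted p = 0.986). Ccl5, a chemokine made by killer cells, fell by 2.03 (SE 0.35, adjusted p = 0.002).

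B cell genes set BF10 replicate 1 apart from the other 2 BF10 libraries. The summed level of 13 B cell genes ranged from 2.16 to 248 FPKM in BF10 and from 11.6 to 12.7 FPKM in αCSF1R. Cd79a, a chain of the B cell receptor complex, was at 0.27, 51.0 and 29.6 FPKM in BF10 and at 1.93, 1.82 and 2.95 FPKM in αCSF1R (1.98, SE 1.06, adjusted p = 0.198). Ms4a1, which encodes CD20, was at 0.19, 22.6 and 9.57 FPKM against 0.05, 0.01 and 0.04 FPKM. Ccl21a, a chemokine of lymph node stroma and lymphatic vessels, followed the same order at 0.59, 107 and 101 FPKM against 7.72, 16.7 and 10.6 FPKM. Of the 13 genes, 5 were tested and none passed. Without BF10 replicate 1, 4 of the 5 rose. The other 8, each above 1 FPKM in BF10 replicates 2 and 3 but in no other of the 6 libraries, did not reach 1 FPKM in the 3 libraries that the filter asks for.

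Immunoglobulin and plasma cell genes rose in 6 of 10 tested with a median of 3.61, over a wide range within BF10. Igkc, the κ light chain, was at 96.6, 920 and 2433 FPKM against 17.4, 14.2 and 34.6 FPKM (4.81, SE 1.29, adjusted p = 0.0196). Jchain, which joins IgA and IgM units, was at 17.1, 67.7 and 181 FPKM against 0.67, 0.52 and 1.12 FPKM (5.12, SE 0.94, adjusted p = 0.00259). Mzb1, a chaperone of antibody secretion, was at 1.74, 29.8 and 44.9 FPKM against 0.17, 0.3 and 0 FPKM (3.77, SE 0.85, adjusted p = 0.00811). Every BF10 library exceeded every αCSF1R library for these genes, with replicate 1 the lowest and replicate 3 the highest. Ighg1, the constant gene of IgG1, spread from 18.0 through 463 to 1579 FPKM in BF10, overlapped with αCSF1R replicate 3 at 25.1 FPKM and did not pass (4.76, SE 1.67, adjusted p = 0.0592). Igkc was not called without BF10 replicate 2 or 3 or αCSF1R replicate 1 or 2 (adjusted p from 0.0635 to 0.0716).

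**Figure D5:**
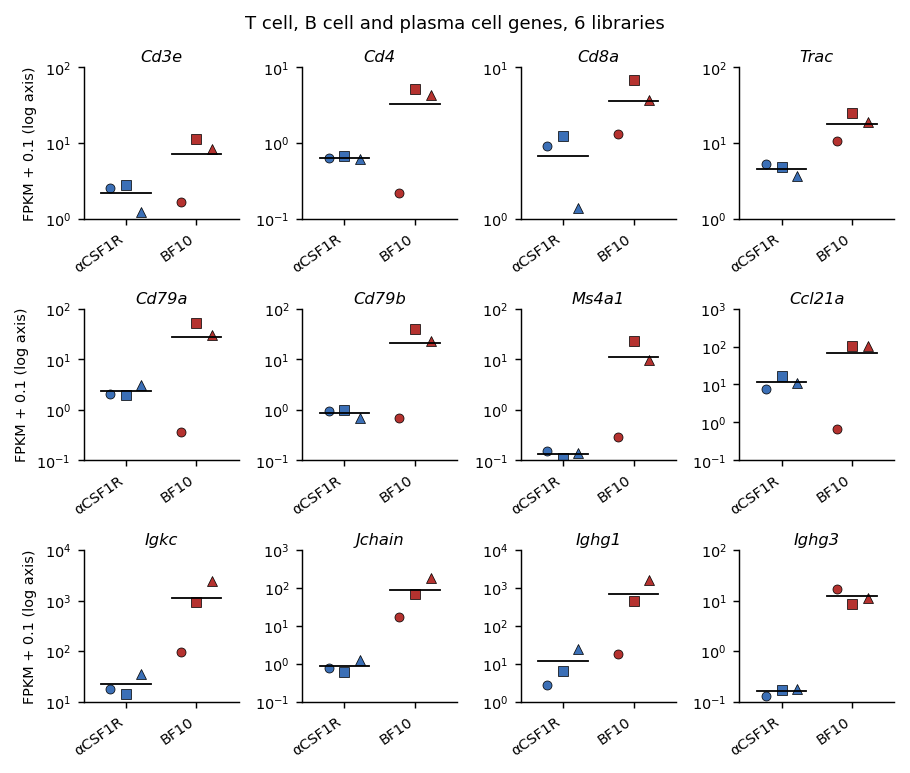
FPKM plus 0.1 on a log axis for 12 T cell, B cell and plasma cell genes in the 6 libraries; each point is a library (circle, square and triangle for replicates 1, 2 and 3) and each bar a group mean. Cd4, Cd79a, Cd79b, Ms4a1 and Ccl21a are high in BF10 replicates 2 and 3 only, while Ighg3 lies between 8.51 and 17.0 FPKM in BF10 and at 0.08 FPKM or less in αCSF1R.

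Checkpoint receptors and regulatory T cell genes gave 1 rise and no fall among 13 tested, with a median of 0, where 11.0% and 14.0% of all genes rose and fell. That rise was Ikzf2, the factor Helios, at a low level (0.66, SE 0.15, adjusted p = 0.00952). Foxp3, the defining factor of regulatory T cells, was at 0.15, 1.15 and 1.27 FPKM against 0.41, 0.51 and 0.34 FPKM and was not tested. The checkpoint ligand gene Cd274, which encodes PD-L1, was at 6.02, 18.2 and 25.2 FPKM against 30.0, 38.5 and 20.6 FPKM (-0.97, SE 0.56, adjusted p = 0.231).

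Outside the lists, the widest differences were in genes at or near 0 in a group or a library. The 5 with the largest rises were Gbp2b, an interferon-induced guanylate-binding protein (6.74), Syt8, a synaptotagmin (6.35), Ifi202b, a DNA-binding protein whose expression is known to differ between mouse strains (6.29), H2-Q2, a class Ib gene (6.19) and Wnt7b, a Wnt ligand (5.74), with adjusted p from 1.94e-06 to 0.000241. Ifi202b was at 374, 96.2 and 83.6 FPKM in BF10 and at 1.29, 1.73 and 0.02 FPKM in αCSF1R. Among the falls were Shisal2b (-5.69, adjusted p = 0.00903), Rhox5, a homeobox gene on the X chromosome (-5.44, adjusted p = 0.00548), Prl2c2, a placental prolactin family gene (-4.85, adjusted p = 0.021), Tex13b (-4.80, adjusted p = 0.000984) and Fmr1nb (-4.73, adjusted p = 0.00109). Shisal2b was at 42.9, 0.24 and 165 FPKM in BF10 and at 1167, 967 and 1092 FPKM in αCSF1R, so the BF10 libraries themselves differed widely in these genes. Without BF10 replicate 3 the differences were -7.18 for Shisal2b, -6.90 for Rhox5, -6.31 for Prl2c2, -5.91 for Tex13b and -5.74 for Fmr1nb. Prl2c2 did not pass without any of the αCSF1R libraries (adjusted p from 0.0505 to 0.0679).

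Genes of other tissue compartments moved beside the immune genes, and their part in the differences above was not tested. Adipocyte genes rose in 3 of 5, with the adipokine Adipoq at 29.8, 16.3 and 18.9 FPKM against 0.3, 0.3 and 0.16 FPKM (4.13, SE 0.84, adjusted p = 0.00465). Of 9 fibroblast genes 2 rose, the collagen gene Col3a1 (1.93, SE 0.48, adjusted p = 0.0137) and the matrix proteoglycan gene Lum (2.80, SE 0.86, adjusted p = 0.0354). Col3a1 did not pass without αCSF1R replicate 1 (adjusted p = 0.0592), nor Lum without BF10 replicate 1 or 2 or any αCSF1R library (0.0552 to 0.123). Skeletal muscle genes, at 90.6 to 655 FPKM in sum in αCSF1R against 8.56 to 101 FPKM, fell in 4 of 8. None of these 4 (Acta1, Myh1, Mylpf and Mb) passed without BF10 replicate 1 or 2 or αCSF1R replicate 1 or 2 (adjusted p from 0.112 to 0.163). None of 8 endothelial, 12 cell cycle or 5 erythrocyte genes passed in either direction, where 25.0% of all genes did.

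IL-10 without the CSF1R antibody was compared in the same fit, since the IL-10-Fc and Ctrl-IgG libraries carry a like division of tumour, strain and sex markers. IL-10-Fc differed from Ctrl-IgG by 1597 higher and 3729 lower genes of 15813 (10.1% and 23.6%). The split depended on the scaling, with 2534 higher and 2679 lower under median-of-ratios scaling and 2461 and 2917 under quantile normalization. The difference of the 2 differences was then tested. It does not separate treatment from host or tumour, since the division is not the same in both pairs: BF10 replicate 3 carries Eif2s3y and genes of the αCSF1R tumours, and no IL-10-Fc library has Eif2s3y. The 2 pairs share no libraries. Mitochondrial genes held 9.04%, 7.69% and 3.04% of the FPKM sum in IL-10-Fc replicates 1 to 3. In Ctrl-IgG they held 3.0%, 7.19% and 3.3%, so the high share seen in BF10 replicate 1 was spread unevenly over the pairs. Whether this bears on the comparison of the pairs was not tested. By the test of the difference of the differences 1 gene passed (0.00632% of 15813), with 412 at an unadjusted limma p under 0.05 and a median difference of 0.19 over all genes.

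That gene was Ighg3 (chr12:113356224-113361232), the constant gene of mouse IgG3. It met the filter of 1 FPKM in 3 libraries only through the BF10 libraries, the group where it was high. Its call is therefore no independent support for a difference. It was at 17.0, 8.51 and 11.1 FPKM in the BF10 libraries, with means of 0.06 ± 0.0265 FPKM (SD, n = 3) in αCSF1R and 0.0967 ± 0.0586 in IL-10-Fc, and at 0 in every Ctrl-IgG library. BF10 exceeded αCSF1R by 3.59 (SE 0.22, adjusted p = 3.24e-06), and this exceeded the difference between IL-10-Fc and Ctrl-IgG by 3.46 (SE 0.31, adjusted p = 0.00422). Unlike Igkc and Ighg1, it was highest in BF10 replicate 1. Ighg3 did not pass under quantile normalization (3.21, adjusted p = 0.076), where Mir1893 passed instead (-2.33, adjusted p = 0.0132; named after its values were seen), nor with a pseudocount of 0.1 (5.29, adjusted p = 0.0889), and it was not tested when a mean of 5 FPKM was required.

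Macrophage genes had larger differences between BF10 and αCSF1R than between IL-10-Fc and Ctrl-IgG, although none passed the test of that excess. Between IL-10-Fc and Ctrl-IgG, 3 of 16 macrophage genes rose with a median of 0.62, against 13 (7 without αCSF1R replicate 1) and 1.68 for BF10 and αCSF1R. The median excess was 1.29, with 7 of 16 genes at an unadjusted limma p under 0.05, against 412 of all 15813 genes. These 16 genes mark 1 cell type, so they do not count as separate results. C1qb had means of 229 ± 46.9 FPKM (SD, n = 3) in BF10, 66.9 ± 5.24 in αCSF1R, 164 ± 15.8 in IL-10-Fc and 169 ± 55.2 in Ctrl-IgG, an excess of 1.74 (SE 0.36, adjusted p = 0.973). Adgre1 had means of 16.1 ± 2.18, 6.03 ± 0.446, 12.5 ± 4.46 and 14.5 ± 7.56 FPKM in the same order, an excess of 1.42 (SE 0.50). For both genes the αCSF1R mean was the lowest of the 4 groups, and the Ctrl-IgG mean was close to that of IL-10-Fc. C1qa and Lyz2, 2 of the 3 genes that rose between IL-10-Fc and Ctrl-IgG, had another pattern. In the same order, C1qa had means of 350 ± 20.2, 61.8 ± 5.6, 336 ± 62.7 and 165 ± 57.9 FPKM. Lyz2 had means of 1130 ± 312, 110 ± 3.86, 1560 ± 832 and 216 ± 137 FPKM. Their αCSF1R means were the lowest too, but those of Ctrl-IgG lay well below BF10 and IL-10-Fc.

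Other gene groups gave list medians that lay close together in both pairs or apart in either direction. Granzymes and cytotoxic effectors had medians of -2.63 and -2.79, interferon-induced genes -1.35 and -1.14, and MHC class II genes 2.51 and 2.13. Medians were higher between BF10 and αCSF1R for plasma cell and immunoglobulin genes (3.61 and 1.05), B cell genes (1.18 and -0.68), T cell genes (0.99 and -0.26), monocyte genes (1.48 and 0.50) and pan-leukocyte genes (1.17 and 0.21). Of 11 myeloid lectins, 6 had an unadjusted limma p under 0.05 for the difference, against 412 of all 15813 genes. Several of this list, Slamf9 and Dpep2 among them, were named by the study from these samples as lower with αCSF1R only. Their count is therefore no independent evidence of such a difference. Among genes with like differences in both pairs, Gzmb fell by 2.63 in BF10 against αCSF1R and by 2.87 in IL-10-Fc against Ctrl-IgG, and Ccl2 by 3.12 and 3.23. Neutrophil genes had a larger median between IL-10-Fc and Ctrl-IgG, at 3.78 against 1.85, and S100a8 had means of 390 ± 257 FPKM (SD, n = 3) in BF10, 113 ± 44.7 in αCSF1R, 1120 ± 750 in IL-10-Fc and 64.5 ± 77.2 in Ctrl-IgG (difference of the differences -2.89, SE 1.16). In IL-10-Fc replicates 1 to 3 S100a8 was at 1892, 1084 and 394 FPKM, highest in the libraries with a high mitochondrial share. Apart from Ighg3, no gene of the 20 immune lists passed the test of the difference of the differences.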

How the data were processed

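RNA from whole tumours was sequenced on an Illumina NextSeq instrument after stranded mRNA library preparation, with 3 libraries in each of 4 groups. Per the submitters' processing notes the tools were STAR 2.7.5a, RSEM 1.3.3 and DESeq2 1.30.0 with build GRCm38 (mm10). The deposited table holds FPKM values that the authors computed for 55401 genes, with 2 decimals and no counts, so absolute depth is unknown. The authors' tables of their own comparisons (log2 fold changes, standard errors and p-values) were not used. Gene positions came from a GRCm38 annotation that held 99.5% of the gene identifiers.

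Genes at 1 FPKM or more in at least 3 of the 12 libraries (15813) were tested on log2(FPKM + 1) with limma 3.58.1 in R 4.3.3, in one fit to all 12 libraries. A gene was called where its Benjamini-Hochberg adjusted p was below 0.05 and its difference 1.5-fold or more. The fit was tested on simulated data. The genes named were the treatment targets, defining markers of each cell type, the called genes of each immune list with the largest differences, and the 5 largest rises and falls outside the lists. Further list members and values were added for description after their values were seen. The groups, lists and members were chosen with earlier results of these data known. Replicate numbers follow accession order and only name libraries. The labels give 6 doses in one place and 4 in another. Some members of the lists are counted but not reported here by name.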

Additional observations from a re-analysis of the deposited data

Results flagged for a closer look

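The difference of Ighg3 between BF10 and αCSF1R exceeded that between IL-10-Fc and Ctrl-IgG by 3.46 on the log2(FPKM + 1) scale (limma adjusted p = 0.00422), the sole gene past the threshold in the reported fit. It did not pass under quantile normalization (3.21, adjusted p = 0.076) or with a pseudocount of 0.1 (5.29, adjusted p = 0.0889), and over the other alternatives that tested it the adjusted p was at most 0.0376. All 3 BF10 libraries were at 8.51 FPKM or more, and no library of the other groups exceeded 0.14 FPKM. The gene thus entered the test only through the group where it was high. Immunoglobulin constant genes are similar in sequence and their haplotypes vary between mouse strains, and whether either bears on this value was not tested.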

How the results depend on the processing

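Of 70 named genes that passed, 45 did so under every alternative and none changed sign. Leaving out 1 of the 6 libraries lost the call of 17 of them, and a term for the first number of the sample titles lost 18. Calls between BF10 and αCSF1R numbered 3955, against 2121 with a mean of at least 5 FPKM (fewer genes tested), 6740 with the FPKM sum as covariate, 2079 with the title number as a term (1268 higher, 811 lower), and 2494 to 3394 with 1 library left out. Calls between IL-10-Fc and Ctrl-IgG numbered 5326, against 3450 with a mean of at least 5 FPKM and 3565 to 8042 with 1 library left out, the highest without IL-10-Fc replicate 3. The difference of the differences gave 1 call, 2 under median-of-ratios scaling or no filter, 1 under quantile normalization that was not Ighg3, 0 with a pseudocount of 0.1 or a mean of at least 5 FPKM, and 1 to 28 with 1 library left out, 28 without BF10 replicate 1. The 97 calls in the immune lists became 157 with the FPKM sum as covariate and 65 to 108 with 1 library left out. With the title number as a term Il10 differed by -0.37 (adjusted p = 0.467) and Il10rb by 0 (adjusted p = 1). Apart from smaller gene or library numbers, the cause was not tested. The title number could not be fitted for the other 2 comparisons, since Ctrl-IgG shares no number with another group. No paired analysis was possible because the replicate numbers were given in accession order, and the BF10 and αCSF1R titles share 1 number (6), held by 1 library of each. Unknown depth limits what can be said of values near 0.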
